A study of Mus musculus with 18 samples.

Results

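AP-1 is a family of transcription factors that bind DNA as pairs of basic leucine zipper (bZIP) proteins. The 10 genes described here were chosen by name: the Fos family (*Fos*, *Fosb*, *Fosl1* and *Fosl2*), the Jun family (*Jun*, *Junb* and *Jund*) and the Batf family (*Batf*, *Batf2* and *Batf3*), each found by its symbol as a single entry among the 62197 genes of the deposited table, 25177 of which carry a symbol. Their mRNA was measured by poly(A) RNA sequencing in mouse bone marrow-derived dendritic cells (DCs) in a study of how squeezing these cells alters gene expression with and without cytosolic phospholipase A_2_ (cPLA_2_, encoded by *Pla2g4a*), a lipid-cleaving enzyme. Bone marrow came from 6- to 8-week-old mice by the paper's account of the cultures, while its section on mice gives an older range. All cells grew for 10 days in medium with GM-CSF-containing supernatant of J558 cells. This culture yields mostly immature CD11c-positive DCs but also granulocytes and macrophages that the protocol removes only by their adhesion. cPLA_2_ KO DCs came from conditional knockout mice, in which *Pla2g4a* fl/fl is combined with the *Itgax-cre* (Cd11c-cre) transgene, so loss of the gene is limited to cells in which that promoter was active. cPLA_2_ WT cells were the controls. Their *Pla2g4a* and cre alleles are not given in the labels.

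Each genotype was studied in 3 conditions with 3 libraries each, 18 libraries in 6 groups. Nonconfined DCs were left unconfined and, by their titles and treatment labels, without LPS, although the protocol text given with every library describes LPS treatment. Confined DCs were held under a roof at a height of 3 µm and collected 4 h after confinement. LPS-treated DCs, also nonconfined, received lipopolysaccharide (LPS), a bacterial cell wall component, at 100 ng ml-1 for 30 min according to the labels. The paper's methods give a slightly shorter time. These cells were then washed and were collected the next day. The time from treatment to collection therefore differed between confinement and LPS, and the treatment and the time cannot be told apart between them. The paper calls the samples in its plot of nonconfined and confined cells biological replicates. The labels do not say whether replicates came from separate mice or separate cultures, so the spread between replicates is that of libraries.

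As background, Fos proteins cannot pair with each other and bind DNA with a Jun partner, whereas Jun proteins can also pair among themselves, and the pairs recognize a short palindromic element in promoters and enhancers. Several members are immediate early genes, transcribed within minutes of a stimulus through MAP kinase, SRF and CREB signaling, and cells then replace short-lived members with more lasting ones. In DCs, Batf proteins pair with Jun proteins and join IRF4 or IRF8 on composite elements, and *Batf3* is required for the development of cross-presenting conventional DCs.

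Levels are given as normalized read counts, the deposited unit, in which each library's gene read counts were divided by a size factor of the authors; they have no scaling for gene length. Libraries held between 33027230 and 61300021 reads on genes, and each value below is listed for replicates 1, 2 and 3 in that order. Changes are log2 fold changes ± SE from a limma fit across 17875 genes, those that reached 10 normalized counts in 3 or more libraries. All 10 members passed that filter. A gene is said to have risen, fallen or differed at a limma adjusted p under 0.05, and every adjusted p below is from that fit. The samples are bulk libraries, so fewer cells of a type and less RNA per cell cannot be told apart. With the size factors of the authors the median log2 fold change over all genes was −0.01 for confinement in cPLA_2_ WT DCs and 0.02 for LPS. Scaling all libraries to the same total moved these medians to −0.23 and −0.47, because confined cPLA_2_ WT and LPS-treated libraries have higher totals, so changes smaller than that shift depend on the scaling.

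The genotype labels were checked with *Pla2g4a*, *Xist*, the Y-linked genes *Ddx3y*, *Eif2s3y*, *Kdm5d* and *Uty*, and *Acot1*. *Pla2g4a* was counted at 697, 686 and 770.4 in nonconfined cPLA_2_ WT libraries and at 548, 542 and 533 in nonconfined cPLA_2_ KO libraries. After confinement its counts were 1369, 1430.3 and 1321 with cPLA_2_ WT and 923, 871 and 919.5 with cPLA_2_ KO. The cPLA_2_ KO libraries were the lower in both conditions, without overlap, yet the transcript was still present. In LPS-treated cells the order was the opposite, with 1005, 969 and 967 in libraries labelled cPLA_2_ WT and 1065, 1032 and 1028 in libraries labelled cPLA_2_ KO. *Ddx3y* did not exceed 3.05 in any nonconfined or confined cPLA_2_ WT library and was 949, 981 and 874 in nonconfined and 1036, 920.2 and 948 in confined cPLA_2_ KO libraries, while *Xist* was at 12153 or more everywhere. The genotypes thus also differ in transcripts of the Y chromosome in these conditions, and genotype and sex of the donor mice cannot be told apart there. In the LPS libraries *Ddx3y* was 1271, 0 and 662 under the cPLA_2_ WT label and 2.12, 1476 and 783 under the cPLA_2_ KO label. Each label thus held a library without the transcript, a library with a high count and a library in between, as it did for *Eif2s3y*, *Kdm5d* and *Uty*. *Acot1*, at 377 or more in nonconfined and confined cPLA_2_ KO libraries and at 6.76 or less in those of cPLA_2_ WT, was 54.9, 0.915 and 33.6 and 0, 49.2 and 40.7 in the LPS libraries labelled cPLA_2_ WT and cPLA_2_ KO. The data therefore go against the genotype labels of the LPS libraries, which are written below as labelled, were not regrouped, and are described mainly by their mean over both labels.

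Confinement of cPLA_2_ WT DCs changed most of the family upward. Against nonconfined cPLA_2_ WT cells 8 of 10 members rose and 1 fell, where 28.2% of all genes tested rose and 28.4% fell; *Jun*, the smallest rise, was lower after confinement by a log2 difference of −0.02, and not called, when libraries were scaled to the same total. In that scaling 7 members rose and 2 fell, with a fall of *Jund* called (−0.27), while of 18016 genes 3575 rose and 7403 fell. The rise exceeded 1 on the log2 scale for 7 members, a size reached in either direction by 19.0% of genes, and *Batf2* was just below it, at 0.98, with the same total per library. The median log2 fold change of the 10 members was 1.88, and that of all genes −0.01. In cPLA_2_ KO DCs, compared with nonconfined cPLA_2_ KO cells, 6 members rose and 3 fell, where 22.8% and 23.4% of genes did, and 6 passed a log2 size of 1, as 12.0% of genes did, with *Fos* at the limit (1.00) and below it with the same total per library (0.97), with TMM scaling (0.99), and without nonconfined cPLA_2_ KO replicate 3 (0.99) or confined cPLA_2_ KO replicate 1 (0.96). The members' median there was 0.22, beside 0.01 for all genes. The difference between these changes, cPLA_2_ KO minus cPLA_2_ WT, was tested as an interaction: it was negative for 8 members and positive for none, where 15.6% of genes were lower and 10.2% higher, and for 6 members it was beyond 1 on the log2 scale (7.67% of genes in either direction). With the same total per library the interaction was negative for 7 members and positive for 0, while over all 18016 genes then tested 1967 were lower and 4740 higher. The interaction of *Fosl1* was then −0.89, within a size of 1, and was also within it without nonconfined cPLA_2_ WT replicate 2 (−0.84), nonconfined cPLA_2_ KO replicate 1 (−0.99) or confined cPLA_2_ WT replicate 1 (−0.96).

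**Figure D1:**
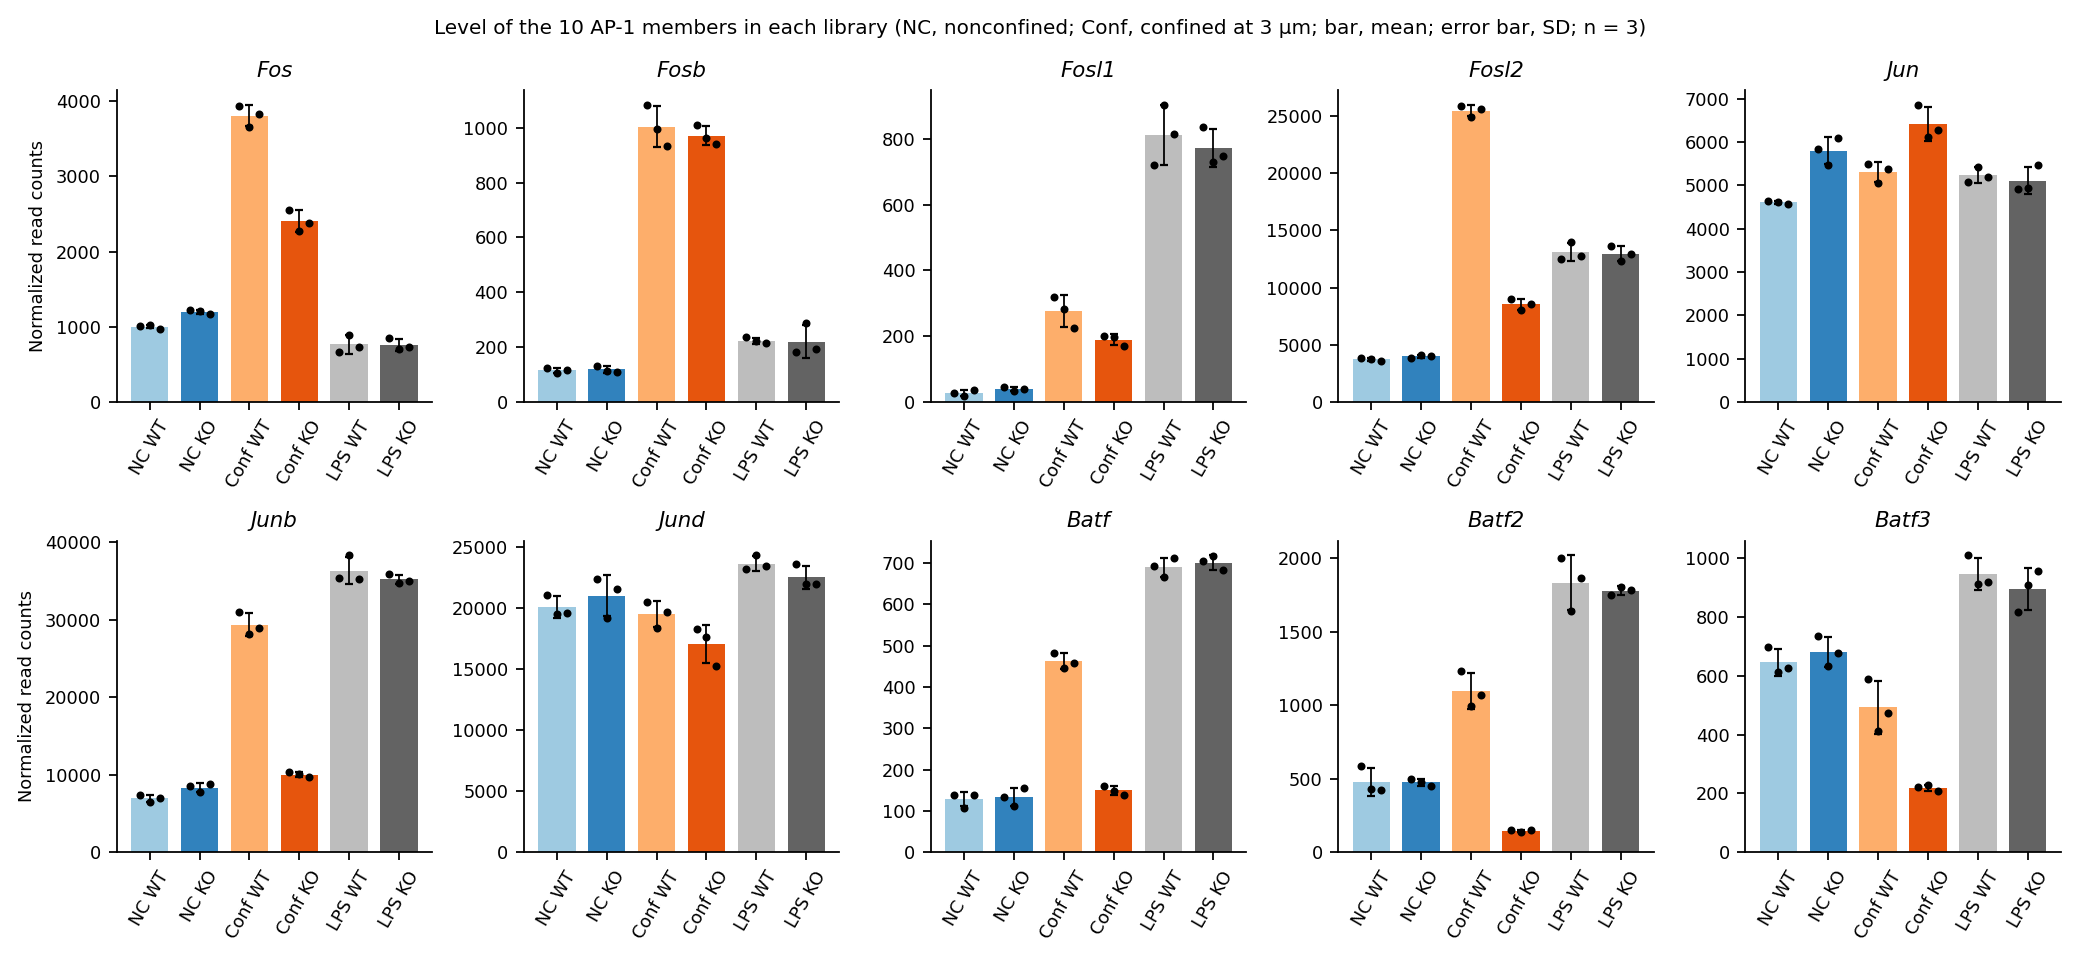
Normalized read counts (y axis, linear from 0, separate scale for each gene) of the 10 AP-1 members in the 6 conditions, with a point per library, bars for the mean of 3 libraries and error bars for the SD. *Fosl2* and *Junb* were high in confined cPLA_2_ WT libraries, at means of 25465 and 29378.5, and lower in confined cPLA_2_ KO libraries, at 8534 and 10033, whereas *Fosb* was at 1004 and 971.

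In the Fos family all 4 members rose with confinement in both genotypes. *Fos* (chr12:85520663-85524048, + strand, genome build GRCm39), the founding member and a classic immediate early gene, was counted at 1005, 1028 and 976 in nonconfined and 3939.6, 3658 and 3829.5 in confined cPLA_2_ WT libraries. With cPLA_2_ KO its counts were 1218, 1206 and 1172 without and 2558, 2278 and 2387 with confinement. Every confined library was above every nonconfined library of either genotype, and the confined cPLA_2_ WT libraries were the highest of all 18. The log2 fold change was 1.92 ± 0.09 (adjusted p = 3.6e-14) in cPLA_2_ WT, a 3.80-fold rise in mean count, and 1.00 ± 0.09 (adjusted p = 4.29e-09) in cPLA_2_ KO, a 2.01-fold rise. The interaction was −0.92 ± 0.12 (adjusted p = 4.79e-06).

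*Fosb* (chr7:19036621-19043971, − strand) encodes a Fos protein that also exists as a shorter splice form without the activation domain. Its counts were 122, 107 and 116 in nonconfined and 1083, 995 and 935 in confined cPLA_2_ WT libraries. In cPLA_2_ KO libraries they were 132, 113 and 109.7 and 1009, 964 and 940.5. The genotypes overlapped in both conditions, and confined libraries were far above nonconfined ones in each. The rise was 8.75-fold in cPLA_2_ WT, at a log2 fold change of 3.12 ± 0.13 (adjusted p = 2.02e-14), and 8.21-fold in cPLA_2_ KO, at 3.03 ± 0.13 (adjusted p = 1.19e-13). An interaction was not called for *Fosb*, with an estimate of −0.09 ± 0.19 (adjusted p = 0.796), which does not show that the responses were equal, and which turned to 0.10, again not called, with the same total per library.

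*Fosl1* (chr19:5497573-5505973, + strand) and *Fosl2* (chr5:32293193-32315175, + strand) encode FRA-1 and FRA-2, Fos-related proteins that lack the strong activation domain of c-Fos. *Fosl2* was counted at 3867, 3731.5 and 3616 in nonconfined cPLA_2_ WT libraries and at 25869, 24909.6 and 25617 after confinement. The cPLA_2_ KO libraries had 3832, 4128 and 4007 without and 8986, 8044 and 8571 with confinement. Confined cPLA_2_ WT libraries stood above all others, the confined cPLA_2_ KO libraries lay in between, and the nonconfined genotypes overlapped. This corresponds to a log2 fold change of 2.77 ± 0.05 (adjusted p = 1.22e-20) in cPLA_2_ WT and 1.10 ± 0.05 (adjusted p = 3.17e-13) in cPLA_2_ KO, or 6.81-fold and 2.14-fold, with an interaction of −1.67 ± 0.07 (adjusted p = 8.25e-14). *Fosl1* was the least counted member in nonconfined cells, at 27.2 ± 8.31 (SD, n = 3) in cPLA_2_ WT and 39.0 ± 4.72 in cPLA_2_ KO. Confinement brought it to 275.5 ± 48.0 in cPLA_2_ WT and 189 ± 16.3 in cPLA_2_ KO. These low counts spread more, with an SD of 30.6% of the mean in nonconfined cPLA_2_ WT libraries. Its log2 fold change of 3.32 ± 0.18 was the highest of the 10 members for cPLA_2_ WT, the cPLA_2_ KO value was 2.25 ± 0.18, and the interaction was −1.07 ± 0.25 (adjusted p = 0.00296).

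In the Jun family *Junb* carried the change. *Junb* (chr8:85699365-85705377, − strand), whose protein pairs with Fos and Batf proteins and activates less strongly than c-Jun, was counted at 7364, 6526 and 7012 in nonconfined and 30993, 28199 and 28943 in confined cPLA_2_ WT libraries. With cPLA_2_ KO it was counted at 8493, 7743 and 8816 and 10350.1, 10048 and 9701. Every confined cPLA_2_ WT library was far above every confined cPLA_2_ KO library, and the cPLA_2_ KO groups, though close, did not overlap. *Junb* rose 4.22-fold in cPLA_2_ WT, at a log2 fold change of 2.08 ± 0.05 (adjusted p = 3.27e-18), and 1.20-fold in cPLA_2_ KO, at 0.27 ± 0.05 (adjusted p = 0.000348). The interaction of −1.81 ± 0.08 (adjusted p = 4.29e-14) was lower than that of all but 833 of the 17875 genes.

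*Jun* (chr4:94937273-94940459, − strand), which encodes c-Jun, the target of JNK kinases, moved little. Its means were 4605 ± 36.2 and 5300.5 ± 233 in nonconfined and confined cPLA_2_ WT cells, and 5799.6 ± 318 and 6412 ± 389 in cPLA_2_ KO cells. Confined values were above nonconfined ones within each genotype without overlap, but by 1.15-fold in cPLA_2_ WT and 1.11-fold in cPLA_2_ KO. The log2 fold change was 0.20 ± 0.05 (adjusted p = 0.00322) in cPLA_2_ WT, where scaling to the same total turned it to −0.02, and 0.14 ± 0.05 (adjusted p = 0.0348) in cPLA_2_ KO. The cPLA_2_ KO call ended without nonconfined cPLA_2_ KO replicate 1 (0.15) or 2 (0.10), without confined cPLA_2_ KO replicate 1 (0.10), and with the same total per library (0.11). *Jund* (chr8:71150389-71153265, + strand), the member with steady expression in most tissues, was at 20070.5 ± 905 in nonconfined and 19521 ± 1052 in confined cPLA_2_ WT cells, which overlapped. In cPLA_2_ KO cells it was at 21046 ± 1666 and 17072 ± 1594, which did not. A predicted gene on the same strand, *Gm64349*, overlaps the *Jund* region, so its reads may be included. Its log2 fold change was −0.04 ± 0.06 (adjusted p = 0.619) in cPLA_2_ WT and −0.30 ± 0.06 (adjusted p = 0.000543) in cPLA_2_ KO, with an interaction of −0.26 ± 0.09 (adjusted p = 0.0369). That small interaction lost its call without nonconfined cPLA_2_ WT replicate 2 (−0.24) or 3 (−0.25), nonconfined cPLA_2_ KO replicate 1 (−0.22) or 3 (−0.24), confined cPLA_2_ WT replicate 1 (−0.23) or 3 (−0.26) or confined cPLA_2_ KO replicate 3 (−0.18), and with the same total per library (−0.07). It also lost its call without both LPS libraries numbered 3 (−0.26, adjusted p = 0.056), an alternative chosen after seeing the data.

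The Batf family differed between the genotypes in all 3 members. *Batf* (chr12:85733451-85755861, + strand), a small bZIP protein without an activation domain, was counted at 139, 108 and 139 in nonconfined and 483, 447 and 457 in confined cPLA_2_ WT libraries. The cPLA_2_ KO libraries had 134, 111 and 155 and 159.7, 149 and 139. Only the confined cPLA_2_ WT group stood out among these 4, and the other 3 groups overlapped. *Batf* rose 3.59-fold in cPLA_2_ WT, at 1.85 ± 0.12 (adjusted p = 1.49e-11) on the log2 scale. The estimate in cPLA_2_ KO was 0.17 ± 0.12 (adjusted p = 0.238), and the interaction was −1.67 ± 0.17 (adjusted p = 7.72e-08).

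*Batf2* (chr19:6191012-6222506, + strand), an interferon-inducible relative, moved in opposite directions. It was counted at 584, 427 and 421 in nonconfined and 1229, 992 and 1067 in confined cPLA_2_ WT libraries. Nonconfined cPLA_2_ KO libraries had 501, 476 and 447, and confined cPLA_2_ KO libraries had 149, 138 and 149.5. The nonconfined genotypes overlapped, all confined cPLA_2_ WT libraries were above them and all confined cPLA_2_ KO libraries were below them. The log2 fold change was 1.21 ± 0.11 (adjusted p = 3.17e-09) in cPLA_2_ WT, and in cPLA_2_ KO *Batf2* fell by 1.70 ± 0.11 (adjusted p = 3.27e-11). Its interaction of −2.91 ± 0.15 (adjusted p = 1.57e-12) was the most negative among the 10 members, and 318 of the 17875 genes had a lower one. The table's *Batf2* region spans 2 predicted genes on the same strand, *Gm55571* and *Gm5510*, so reads of these may be included.

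*Batf3* (chr1:190830076-190841144, + strand) was counted at 698, 613 and 627 in nonconfined and 590.4, 412.5 and 474 in confined cPLA_2_ WT libraries. With cPLA_2_ KO the counts were 734, 632 and 675.5 and 221, 227 and 209. Both confined groups were below both nonconfined groups, and the confined cPLA_2_ KO libraries were the lowest of all. In cPLA_2_ WT *Batf3* fell by 0.41 ± 0.10 on the log2 scale (adjusted p = 0.0022; by 0.63 with the same total per library) and in cPLA_2_ KO by 1.63 ± 0.10 (adjusted p = 4.18e-11), with an interaction of −1.22 ± 0.15 (adjusted p = 1.3e-06).

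**Figure D2:**
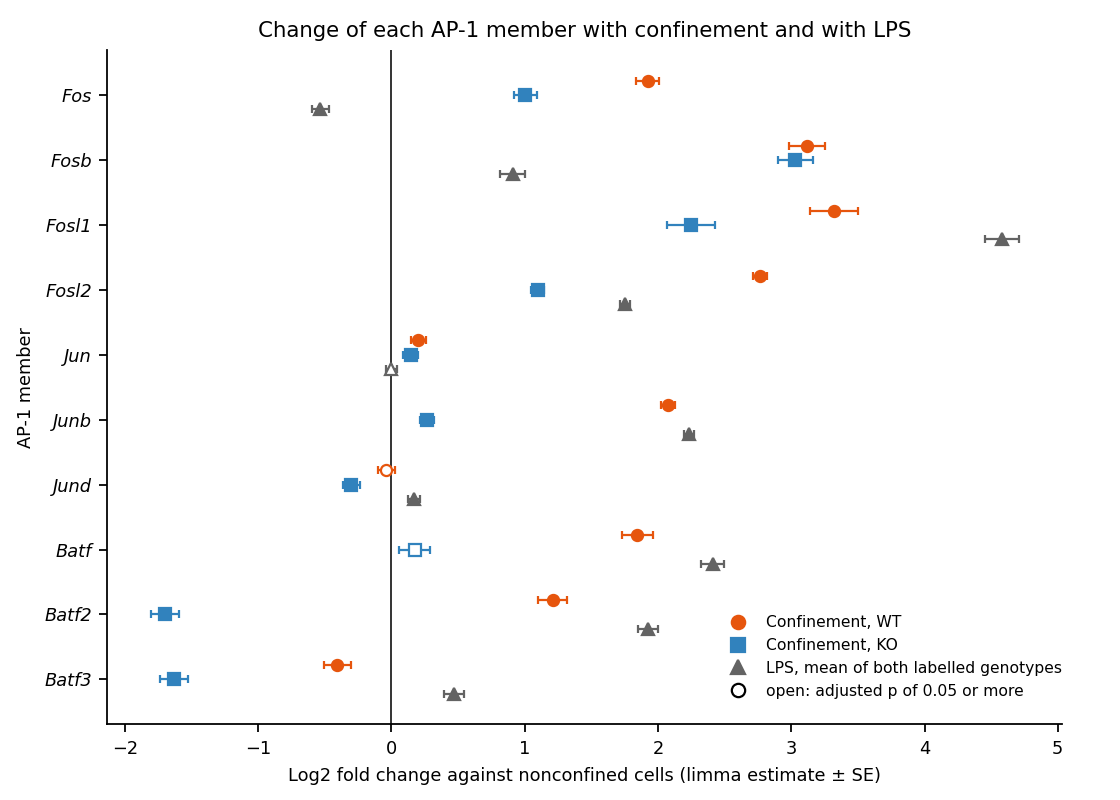
Log2 fold change (x axis, limma estimate ± SE) of each AP-1 member against nonconfined cells for confinement in cPLA_2_ WT (circles), confinement in cPLA_2_ KO (squares) and LPS as the mean of both labelled genotypes (triangles), with open symbols where the adjusted p was 0.05 or more. *Batf2* was at 1.21 with confinement in cPLA_2_ WT, −1.70 in cPLA_2_ KO and 1.93 with LPS; with the same total per library *Jun* in confined cPLA_2_ WT turned to −0.02, and *Jund* and *Batf3* with LPS turned to −0.33 and −0.02.

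The genotypes were next compared within confinement, which uses the same confined libraries as the comparisons above and is not independent of them. Against confined cPLA_2_ WT cells, 8 members were lower and 1 was higher in confined cPLA_2_ KO cells, where 20.6% and 18.8% of genes were, and 5 were lower by more than 1 on the log2 scale (10.1% of genes in either direction). With the same total per library 6 members were lower and 1 higher, and over all 18016 genes 2599 were lower and 6002 higher, and the difference of *Batf3* came to −0.995, within a size of 1. *Batf2* was lower by 7.54-fold (−2.90 ± 0.11, adjusted p = 1.98e-15), *Batf* by 3.09-fold (−1.62 ± 0.12), *Fosl2* by 2.98-fold (−1.58 ± 0.05), *Junb* by 2.93-fold (−1.55 ± 0.05) and *Batf3* by 2.25-fold (−1.15 ± 0.10). *Fos* was lower by 1.58-fold, at −0.66 ± 0.09 (adjusted p = 2.1e-06). All 3 confined cPLA_2_ KO libraries were below all 3 confined cPLA_2_ WT libraries for each of these 6 genes. *Fosl1* (−0.53 ± 0.18, adjusted p = 0.023) and *Jund* (−0.20 ± 0.06, adjusted p = 0.0187) were lower by less, and both calls ended with the same total per library, at −0.37 and −0.04. The *Fosl1* call also ended without confined cPLA_2_ WT replicate 1 (−0.42) or 2 (−0.50) or confined cPLA_2_ KO replicate 3 (−0.46), and without all LPS libraries (−0.53, adjusted p = 0.0512), an alternative chosen after seeing the data. That of *Jund* ended without confined cPLA_2_ WT replicate 1 (−0.16) or 3 (−0.19) or confined cPLA_2_ KO replicate 3 (−0.12). *Jun* was the member higher in confined cPLA_2_ KO cells, by 1.21-fold (0.27 ± 0.05, adjusted p = 0.000362; 0.43 with the same total per library), and *Fosb* was not called (−0.05 ± 0.13, adjusted p = 0.825; 0.11 with the same total per library).

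Without confinement the genotypes differed little. *Jun* and *Junb* were higher in nonconfined cPLA_2_ KO than in nonconfined cPLA_2_ WT cells, 2 of 10 members, none was lower, and 4.78% and 4.11% of all genes were higher and lower. *Jun* was counted at 4637, 4613 and 4566 in cPLA_2_ WT and 5847.5, 5461 and 6091 in cPLA_2_ KO libraries, which did not overlap. Its difference was 0.33 ± 0.05 (adjusted p = 0.000574), or 1.26-fold, and that of *Junb* was 0.26 ± 0.05 (adjusted p = 0.00402), or 1.20-fold. *Fos* did not overlap between genotypes either, but its difference of 0.26 ± 0.09 (adjusted p = 0.069) was not called in the fit of all libraries. It was called without LPS-treated cPLA_2_ WT replicate 1 or 2 or cPLA_2_ KO replicate 1, with the same estimate of 0.26, in a fit of the 2 compared conditions alone (adjusted p = 0.0106), without all LPS libraries (adjusted p = 0.00262), an alternative chosen after seeing the data, and by DESeq2 (adjusted p = 0.0291). *Fosl1*, at 0.54 ± 0.18 (adjusted p = 0.0641), was called without nonconfined cPLA_2_ WT replicate 3 (0.75) or cPLA_2_ KO replicate 2 (0.63), but was down to 0.31 without nonconfined cPLA_2_ WT replicate 2. The other 6 members had differences between 0.01 and 0.09.

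LPS treatment gave a different profile of the same family. As the mean over both labelled genotypes, 8 of 10 members rose and 1 fell against nonconfined cells, where 37.2% and 34.3% of genes did, and 5 rose by more than 1 on the log2 scale (29.0% of genes in either direction). With the same total per library *Jund* and *Batf3* turned lower, at −0.33 and −0.02, the latter not called, and *Jun* fell by 0.50. In that scaling 6 members rose and 3, *Fos*, *Jun* and *Jund*, fell, and 3606 of 18016 genes rose and 10246 fell. The members' median change was 1.33, beside 0.02 for all genes. Taken label by label, 9 rose and 1 fell in cPLA_2_ WT-labelled cells (33.4% and 29.4% of genes), and 7 rose and 2 fell in cPLA_2_ KO-labelled cells (33.4% and 30.1%), again with *Jund* turning lower under both labels with the same total per library (−0.28 and −0.38), *Jun* under the cPLA_2_ WT label (−0.33) and *Batf3* under the cPLA_2_ KO label (−0.09). In that scaling 6 members rose and 3 fell under each label. Of 18016 genes 3164 then rose and 9351 fell under the cPLA_2_ WT label, and 3247 and 9244 under the cPLA_2_ KO label. These comparisons share the nonconfined libraries with those of confinement.

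*Fosl1* was counted at 719, 902 and 813 in cPLA_2_ WT-labelled and 837, 730.0 and 749 in cPLA_2_ KO-labelled LPS libraries. All 6 were above every confined library, and the labels overlapped. Its log2 fold change over both labels was 4.58 ± 0.13 (adjusted p = 2.02e-18). *Junb* reached 35397.5, 38315 and 35250.1 and 35899.9, 34792 and 35035. These were the highest *Junb* counts of the series, and the labels overlapped here too. The mean log2 fold change of *Junb* was 2.23 ± 0.04 (adjusted p = 3.8e-22). *Batf*, at 691, 665 and 711 and 704, 716 and 682, and *Batf2*, at 2002, 1637 and 1862 and 1746, 1802 and 1785, were likewise higher in each LPS library than in any other. Their changes were 2.41 ± 0.08 (adjusted p = 1.01e-16) and 1.93 ± 0.08 (adjusted p = 9.86e-16). *Fosl2* was at 13091 ± 789 and 12974 ± 656 and changed by 1.75 ± 0.04 (adjusted p = 1.38e-20).

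*Fos* was the member that fell with LPS. It was counted at 661, 896 and 734 in cPLA_2_ WT-labelled and 849.6, 701 and 728 in cPLA_2_ KO-labelled libraries, all below the nonconfined libraries of either genotype. On the log2 scale it fell by 0.53 ± 0.06 (adjusted p = 7.63e-08), and by 1.03 with the same total per library. *Fosb* rose, from means of 115 and 118 to 224 and 220.0, a change of 0.91 ± 0.10 (adjusted p = 1.99e-08) that was 0.42 in that scaling. *Jund* and *Batf3* rose by 0.17 ± 0.05 (adjusted p = 0.00212) and 0.47 ± 0.07 (adjusted p = 6.74e-06), both of which turned negative with the same total per library (−0.33 and −0.02). *Jun*, at 0.00 ± 0.04 (adjusted p = 0.995), was not called over both labels, where it rose by 0.18 ± 0.05 (adjusted p = 0.00594) under the cPLA_2_ WT label and changed by −0.18 ± 0.05 (adjusted p = 0.00573) under the cPLA_2_ KO label. Scaled to the same total it was lower under both labels (−0.33 and −0.66), and its change over both labels was −0.50 and called.

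Between the labelled genotypes of the LPS libraries no member differed, and limma called 0 of 17875 genes (0%), with 890 at an unadjusted p under 0.05. Calls by edgeR and DESeq2 were also 0. Each label mixes libraries with and without Y-linked transcripts, so these counts do not show whether the genotypes differ after LPS. The log2 differences of the 10 members lay between −0.08 and 0.02. The interaction of LPS and labelled genotype was lower for 1 of 10 members and higher for none, where 0.962% and 0.313% of genes were. That member was *Jun*, at −0.37 ± 0.08 (adjusted p = 0.0168), whose nonconfined levels already differed between genotypes. The call ended without nonconfined cPLA_2_ WT replicate 3 (−0.36) or nonconfined cPLA_2_ KO replicate 3 (−0.33). *Junb*, at −0.30 ± 0.08 (adjusted p = 0.0522), was called without nonconfined cPLA_2_ WT replicate 1 (−0.34) or nonconfined cPLA_2_ KO replicate 2 (−0.36), and by edgeR (−0.30) and DESeq2 (−0.30).

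Confined and LPS-treated cells were also set against each other, with the label problem and the different times in mind. In cPLA_2_ WT, 3 members were higher and 6 lower after confinement than after LPS, where 21.6% and 27.2% of genes were, but *Jund* was 0.01 higher and not called with the same total per library. In cPLA_2_ KO, 3 were higher and 7 lower (28.1% and 30.6% of genes), with *Jund* at 0.04 in that scaling. After that scaling 4 members were higher and 4 lower in cPLA_2_ WT, with *Jun* called higher (0.31), and 3 higher and 6 lower in cPLA_2_ KO, while of 18016 genes 7369 were higher and 2448 lower in cPLA_2_ WT, and 9663 and 2794 in cPLA_2_ KO. *Fos* and *Fosb* were higher after confinement in both genotypes. For *Fos* the difference was 2.33 ± 0.09 (adjusted p = 3.91e-15) in cPLA_2_ WT and 1.67 ± 0.09 (adjusted p = 2.99e-13) in cPLA_2_ KO, and for *Fosb* 2.16 ± 0.13 (adjusted p = 1.91e-11) and 2.17 ± 0.13 (adjusted p = 7.56e-12). *Fosl2* was higher after confinement in cPLA_2_ WT (0.96 ± 0.05, adjusted p = 1.77e-12) and lower in cPLA_2_ KO (−0.60 ± 0.05, adjusted p = 1.61e-09; −0.16 with the same total per library). *Fosl1*, *Junb* and the Batf members were lower after confinement in both. *Batf2* gave the most negative difference for cPLA_2_ KO, −3.60 ± 0.11, beside −0.74 ± 0.11 in cPLA_2_ WT (−0.45 with the same total per library). *Junb* was at −0.31 ± 0.05 in cPLA_2_ WT, a call that ended with the same total per library (−0.02), and at −1.81 ± 0.05 in cPLA_2_ KO.

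With the size factors of the authors the order of the 6 conditions differed among members. *Fos* and *Fosl2* were highest in confined cPLA_2_ WT cells, and *Fosb* in both confined groups, whose values overlapped. *Fosl1*, *Junb*, *Batf*, *Batf2* and *Batf3* were highest in the LPS groups, which overlapped between labels for each of these 5. With the same total per library this did not hold for *Batf3*, whose LPS change was −0.02, and *Junb* in confined cPLA_2_ WT cells was then not called against LPS-treated cPLA_2_ WT cells (−0.02). *Batf2*, *Batf3* and *Jund* were lowest in confined cPLA_2_ KO cells, and in each case without overlap with the next condition. For *Jund* the place depends on the scaling, since with the same total per library confined cPLA_2_ KO cells were 0.04 above LPS-treated cPLA_2_ KO and −0.04 from confined cPLA_2_ WT cells, neither called. The ratio of the highest to the lowest condition mean was 29.8 for *Fosl1*, 12.6 for *Batf2* and 8.75 for *Fosb*. It was lowest for *Jun* and *Jund*, at 1.39 and 1.39.

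Levels can be compared between genes only per length, so counts were divided by the length of each gene's Ensembl canonical transcript. Summed over the 10 members, nonconfined cPLA_2_ WT cells held 19664 ± 905 normalized counts per kb (SD, n = 3), and nonconfined cPLA_2_ KO cells 21570.3 ± 1418.5. Confined cPLA_2_ WT cells held 37336.5 ± 1844, and confined cPLA_2_ KO cells 21047 ± 1292. The LPS groups were at 41822 ± 1385 and 40379 ± 887. The 3 summed values of confined cPLA_2_ WT cells were above those of all nonconfined and confined cPLA_2_ KO libraries, which overlapped among themselves. *Jund* made up 61.2% ± 0.36 of the sum in nonconfined cPLA_2_ WT cells and 31.4% ± 0.395 in confined cPLA_2_ WT cells, at 12039.9 and 11710.2 counts per kb. The share of *Junb* was 19.6% ± 0.537 and 43.5% ± 0.387, at 3851.5 and 16240.2 counts per kb. *Junb* was thus the most abundant member per kb in confined cPLA_2_ WT and LPS-treated cells, and *Jund*, whose region may include reads of *Gm64349*, in the other 3 groups, in each case without overlap with the next member. By their means the same 2 genes led when the union of all annotated exons was used as the length. *Junb* in confined cPLA_2_ WT cells was then closer to *Jund*, at means of 12339 and 11710.2, and the lack of overlap holds there for the canonical length only. The *Junb* region of the counts also runs past its canonical transcript (chr8:85703539-85705347), so its place ahead of *Jund* there depends on the length used. In confined cPLA_2_ KO cells *Junb* had a share of 26.4% ± 0.778 and *Jund* of 48.6% ± 1.83. The Fos family together took 5.37% ± 0.193 in nonconfined cPLA_2_ WT, 15.7% ± 0.354 in confined cPLA_2_ WT, 12.9% ± 0.73 in confined cPLA_2_ KO and 6.53% ± 0.304 in cPLA_2_ WT-labelled LPS libraries. The Batf family took 6.46% ± 0.366, 4.97% ± 0.333, 2.51% ± 0.0684 and 7.60% ± 0.706 in the same groups.

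**Figure D3:**
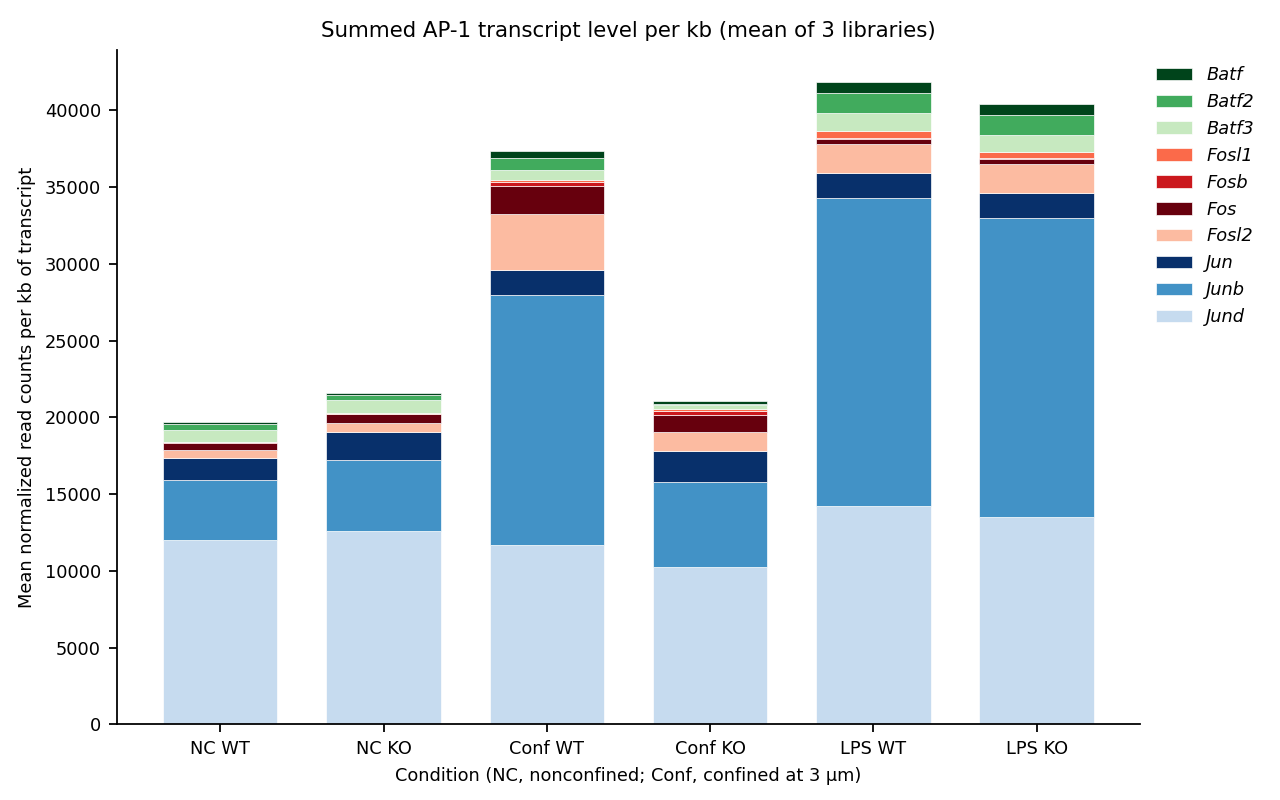
Mean normalized read counts per kb of canonical transcript (y axis, linear from 0), stacked over the 10 AP-1 members in each of the 6 conditions (x axis). The sum was 19664 in nonconfined and 37336.5 in confined cPLA_2_ WT cells, with *Junb* at 3851.5 and 16240.2 and *Jund* at 12039.9 and 11710.2.

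How alike the members ran over the 18 libraries is described by Pearson r of log2 counts, with no test, since the libraries share 6 conditions. *Junb* and *Batf* were the most alike pair of members (r = 0.989), followed by *Junb* and *Fosl1* (r = 0.924). *Fos* ran with *Fosb* (r = 0.816) and opposite to *Batf3* (r = −0.738). *Jund* and *Batf3* were alike (r = 0.897), and *Fos* and *Jund* were not (r = −0.667). Among the 10553 other genes with a symbol and a mean of at least 100 normalized counts, those most like *Junb* were *Sp140* (r = 0.997) and *Il6* (r = 0.996). For *Batf* they were *Sbds* (r = 0.995) and *Nfkbia* (r = 0.994), for *Batf2* *Igtp* (r = 0.995) and *Irgm2* (r = 0.994), and for *Batf3* *Gnb4* (r = 0.981) and *Gsdmd* (r = 0.972). The Fos family was closest to *Thap6* (r = 0.987) and *Irf2bpl* (r = 0.983) for *Fos*, *Lmna* (r = 0.986) and *Gabarapl1* (r = 0.983) for *Fosb*, *Clip2* (r = 0.994) and *Arl1* (r = 0.994) for *Fosl1*, and *Edem2* (r = 0.996) and *Tax1bp1* (r = 0.995) for *Fosl2*. *Jun* was closest to *Derl1* (r = 0.917) and *Msrb1* (r = 0.898), and *Jund* to *Siah2* (r = 0.929) and *Dnajb11* (r = 0.924), the loosest likenesses of the family.

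Genes around AP-1 were followed in lists chosen by known role, whose counts stand beside 28.2% of all genes risen and 28.4% fallen in cPLA_2_ WT, 22.8% and 23.4% in cPLA_2_ KO, and 10.2% of interactions positive and 15.6% negative. Of 16 other bZIP factors that can pair with AP-1 proteins or share their elements, 12 rose and 2 fell with confinement in cPLA_2_ WT, 11 rose and 2 fell in cPLA_2_ KO, and 6 had a negative and 2 a positive interaction, with medians of 0.83, 0.43 and −0.16. *Jdp2*, which represses AP-1 targets, was counted at 525, 492 and 428.5 in nonconfined and 2135.5, 2104 and 2243 in confined cPLA_2_ WT libraries, against 447, 410.5 and 544 and 574, 471 and 545 in cPLA_2_ KO. Confined cPLA_2_ WT stood alone among these 4 groups, at a log2 fold change of 2.17 ± 0.10 (adjusted p = 4.31e-14) and an interaction of −1.98 ± 0.14 (adjusted p = 2.47e-10). *Atf3*, a stress-induced partner of Jun proteins, rose by 2.05 ± 0.05 in cPLA_2_ WT and 1.00 ± 0.05 in cPLA_2_ KO, with an interaction of −1.05 ± 0.07 (adjusted p = 3.71e-11). *Ddit3* (CHOP, a stress factor) rose by 1.92 and 1.28, and *Maff*, a small Maf protein, by 1.78 and 0.85. The 2 IRF partners of Batf proteins moved as *Batf2* did: *Irf4* rose by 0.43 ± 0.09 (adjusted p = 0.000185) in cPLA_2_ WT and fell by 0.35 ± 0.09 (adjusted p = 0.00189) in cPLA_2_ KO, and *Irf8* rose by 0.42 ± 0.04 (adjusted p = 4.28e-08) and fell by 0.46 ± 0.04 (adjusted p = 2.38e-08), with interactions of −0.78 and −0.89. The median of all genes tested was −0.01 for confinement in cPLA_2_ WT, 0.01 in cPLA_2_ KO and 0.05 for the interaction.

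Among 15 MAP kinases and their kinases, which phosphorylate AP-1 proteins or their inducers, 10 rose and 3 fell in cPLA_2_ WT, 7 rose and 1 fell in cPLA_2_ KO, and 6 interactions were negative and 2 positive, at medians of 0.38, 0.17 and −0.09. *Map3k8*, *Map3k5* and *Mapk8* (JNK1) rose in cPLA_2_ WT by 1.41, 1.24 and 0.85, and their interactions were −1.09, −1.02 and −0.84. A further list held 8 SRF, TCF and CREB family genes, whose families regulate immediate early promoters, not always by activation. Of these 8, 4 rose and 1 fell in cPLA_2_ WT, and 5 rose and 1 fell in cPLA_2_ KO. There were 2 negative interactions and 1 positive, and the 3 medians were 0.19, 0.22 and −0.02. *Crem* rose by 2.87 in cPLA_2_ WT and 1.40 in cPLA_2_ KO, *Mrtfb* by 1.13 in cPLA_2_ KO with a positive interaction of 0.95, *Creb1* by 0.42 in cPLA_2_ WT, and *Mrtfa* fell by 0.26 in cPLA_2_ WT and 0.35 in cPLA_2_ KO. Of 18 immediate early genes outside AP-1, 11 rose and 4 fell in cPLA_2_ WT, 8 rose and 5 fell in cPLA_2_ KO, and 13 interactions were negative and 2 positive, at medians of 0.83, −0.07 and −0.89. The MAP kinase phosphatases *Dusp2* and *Dusp1* rose by 4.80 and 3.90 in cPLA_2_ WT and by 1.05 and 1.27 in cPLA_2_ KO, and the orphan nuclear receptors *Nr4a2* and *Nr4a1* by 3.32 and 2.95 and by 1.71 and 1.26. Of 17 genes with a known AP-1 element, 12 rose and 3 fell in cPLA_2_ WT, the counts were 12 and 3 in cPLA_2_ KO, and 9 interactions were negative and 1 positive, at medians of 1.79, 1.29 and −0.32. *Il6*, a cytokine gene, was counted at 75.4, 83.6 and 91.4 in nonconfined and 13389, 12713 and 12474 in confined cPLA_2_ WT libraries, and at 133, 104 and 118 and 296, 307 and 267 in cPLA_2_ KO libraries. Its levels were thus far apart between the confined genotypes, with an interaction of −5.97 ± 0.12 (adjusted p = 1.52e-19). *Timp1*, a metalloproteinase inhibitor, had means of 26.8 and 2639.9 in cPLA_2_ WT and 22.7 and 72.2 in cPLA_2_ KO. *Csf2*, the GM-CSF gene, was at 0 in all nonconfined cPLA_2_ WT libraries and at 44.5, 41.2 and 33.2 in confined cPLA_2_ WT libraries, with a mean of 10.4 in confined cPLA_2_ KO libraries. These counts are low beside its LPS means of 1225.4 (cPLA_2_ WT label) and 1339.2 (cPLA_2_ KO label). Only through the LPS libraries did *Csf2* reach the mean count required for naming.

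Promoters of the members, from 250 bases before to 50 after the annotated start of the canonical transcript, were read from the GRCm39 genome with GENCODE annotation and searched on both strands, because several members moved together, and each share below is that of all 21757 protein-coding promoters of the same length. The AP-1 site TGANTCA was in 0 of 10 windows (7.15% of all), and the CArG box of SRF in 0 (1.54%). The cyclic AMP element TGACGTCA was in the *Jund* window (2.45%), the *Jun* element TGACATCA in that of *Jun* (3.09%), and the STAT element TTCNNNGAA in that of *Batf3* (8.82%). An interferon-response core GAAANNGAAA was in the *Batf2* and *Fosl2* windows (3.84%), and a κB element in those of *Fos*, *Fosb* and *Batf* (4.87%). A match is a description of these letters and does not show binding. A window without a match does not show that the gene lacks the element, since bases farther from the start were not searched. Stretches around 4 matches are printed 5′ to 3′ on the strand of the gene with the match in capitals: *Batf2*, whose change turned with genotype (chr19:6214369-6214430, + strand), *Batf*, which rose with confinement only in cPLA_2_ WT by its test (chr12:85733192-85733253, + strand), and *Jun* (chr4:94940471-94940530, − strand) and *Jund* (chr8:71151359-71151418, + strand), the members that moved least. The interferon-response match of *Batf2* starts 40 bases and the *Jun* element 45 bases before the annotated start.
*Batf2* interferon-response core: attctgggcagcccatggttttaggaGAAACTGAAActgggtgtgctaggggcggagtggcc
*Batf* κB element: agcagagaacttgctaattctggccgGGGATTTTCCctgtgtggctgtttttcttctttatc
*Jun* element: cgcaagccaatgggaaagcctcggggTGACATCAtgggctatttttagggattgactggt
*Jund* cyclic AMP element: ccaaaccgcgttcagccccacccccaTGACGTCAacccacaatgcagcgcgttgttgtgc

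Markers of other cells that such cultures can hold moved with the same conditions. The 5 eosinophil markers, with *Prg2* the most abundant, summed to 26069, 25818.5 and 25713 in nonconfined and 7187, 6644 and 6566 in confined cPLA_2_ WT libraries and 60367, 57156.5 and 58731.5 and 14673, 14118 and 14899.8 in those of cPLA_2_ KO. In LPS libraries the sums were 36527, 21602.5 and 28760.1 (cPLA_2_ WT label) and 21363, 35835 and 29289.6 (cPLA_2_ KO label). Outside the LPS libraries the sums were lower after confinement in both genotypes and higher in cPLA_2_ KO than in cPLA_2_ WT. *Prg2* and *Epx* made up most of them, and *Ccr3* moved otherwise, with means of 85.4 in nonconfined and 189.7 in confined cPLA_2_ WT libraries and 229 and 61.3 in those of cPLA_2_ KO. Sums of the 9 neutrophil markers, led by *S100a9*, were 224563, 229914 and 228124 in nonconfined and 143595, 137069 and 134729.8 in confined cPLA_2_ WT libraries and 352654, 316318.5 and 340991 and 314522, 328932 and 313208 in those of cPLA_2_ KO. In LPS libraries the sums were 290378.5, 270966 and 273148 (cPLA_2_ WT label) and 257601, 292874 and 274981 (cPLA_2_ KO label). Confined cPLA_2_ WT libraries were the lowest for these, while the cPLA_2_ KO sums overlapped. Single markers moved within the cPLA_2_ KO sums, where 4 of 9 fell with confinement and 1 rose (23.4% and 22.8% of all genes), *Mpo* for example from a mean of 2801.5 to 1111. In cPLA_2_ WT 8 of 9 fell and 0 rose (28.4% and 28.2% of genes). Of their interactions 7 were positive and 0 negative (10.2% and 15.6% of genes). All 9 were higher in confined cPLA_2_ KO than in confined cPLA_2_ WT cells (18.8% of genes). The 7 mast cell and basophil markers summed to 7577, 7820.2 and 7696 in nonconfined and 16152, 15486.5 and 15924 in confined cPLA_2_ WT libraries and 11439, 11216 and 11036.5 and 7027, 6854 and 7032.5 in those of cPLA_2_ KO. In LPS libraries the sums were 16404, 19120.1 and 17159 (cPLA_2_ WT label) and 19265, 16311 and 17934 (cPLA_2_ KO label). Here *Hdc*, which DCs and other cells also induce, made up 12369.5 of the confined cPLA_2_ WT mean of 15854, whereas *Ms4a2* and *Mcpt8* fell there by 2.21 and 1.64 on the log2 scale. *Hdc* also made up 10841 and 10975.5 of the LPS means of 17561 (cPLA_2_ WT label) and 17836 (cPLA_2_ KO label). Of the 7 markers 2 rose and 5 fell with confinement in each genotype and with LPS over both labels, where the median was −0.22. Of all genes 28.2% rose and 28.4% fell in cPLA_2_ WT, 22.8% and 23.4% in cPLA_2_ KO, and 37.2% and 34.3% with LPS. The 8 macrophage markers, led by *Adgre1*, summed to 15192, 14986.5 and 15328 in nonconfined and 13617, 12900.3 and 12917 in confined cPLA_2_ WT libraries and 17206, 18131 and 17861 and 13216, 12191 and 12865 in those of cPLA_2_ KO. In LPS libraries the sums were 34542, 28184.5 and 30722 (cPLA_2_ WT label) and 27226.5, 33321 and 30659 (cPLA_2_ KO label), with *Cd163* at 0 in all confined cPLA_2_ KO and all cPLA_2_ KO-labelled LPS libraries. *Marco* made up much of the LPS sums, at means of 10615 (cPLA_2_ WT label) and 10099 (cPLA_2_ KO label) beside 156 and 722.5 in nonconfined cPLA_2_ WT and cPLA_2_ KO libraries. Of the 7 macrophage markers tested 3 rose and 4 fell with LPS over both labels, at a median of −0.35, where 37.2% and 34.3% of all genes did. Of 6 T cell and B cell markers, *Trac* was not in the table, and the other 5, led by *Cd3d*, summed to 164, 204 and 189 in nonconfined and 86.0, 82.3 and 71.1 in confined cPLA_2_ WT libraries and 238, 238 and 214.5 and 132, 114 and 148 in those of cPLA_2_ KO. In LPS libraries the sums were 117, 115 and 118.5 (cPLA_2_ WT label) and 79.6, 125 and 141 (cPLA_2_ KO label). The 10 DC markers, with *Cd74* the most abundant, were present throughout, at 507905, 482598 and 487061 in nonconfined and 477822, 446163 and 457857 in confined cPLA_2_ WT libraries and 614848, 573996 and 603967.5 and 425593, 411248 and 426375 in those of cPLA_2_ KO. In LPS libraries the sums were 753092, 644578.5 and 684947 (cPLA_2_ WT label) and 646122, 739309 and 704301 (cPLA_2_ KO label). With confinement 7 of the 10 fell and 1 rose in cPLA_2_ WT, at a median of −0.29, where 28.4% and 28.2% of all genes did. All 10 fell in cPLA_2_ KO, at a median of −0.68, where 23.4% of genes did. Of their interactions 6 were negative and 0 positive, where 15.6% and 10.2% of genes were. *Itgax*, which encodes CD11c, had means of 6281 and 4626 in nonconfined and confined cPLA_2_ WT libraries and 5175 and 4316 in those of cPLA_2_ KO. The part of these other cells in the AP-1 changes was not tested.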

How the data were processed

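Reads were aligned by the authors with STAR 2.7.5a to the mm39 (GRCm39) mouse genome, counted per gene with featureCounts 1.5.0 and normalized with DESeq2 size factors in R 3.5.3. The deposited unit, called signal by the authors, is the normalized read count. Multiplying each library by 1 factor recovered whole read counts for 100% of values (tolerance 0.01 reads). On these edgeR 4.0.16 called 10161 and DESeq2 1.42.0 called 10270 genes between confined and nonconfined cPLA_2_ WT cells, and limma 3.58.1 called 10113. The limma fit (R 4.3.3) used log2(normalized count + 1), 6 condition means, a variance trend and adjustment within each comparison. Summaries and figures used Python 3.11.15 and matplotlib 3.10.9. Lengths and promoters came from GRCm39 with GENCODE vM39. The members, the gene lists and the genes named from them were chosen with earlier results of these data known. From each list the 3 genes with the largest called change in confined against nonconfined cPLA_2_ WT cells and the 3 with the largest called interaction, at a mean of at least 100 normalized counts, could be named, as could the 2 genes most alike to each member by Pearson r, all IRF partners and all genes of the label check. No protein sequences were at hand.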

Additional observations from a re-analysis of the deposited data

Results flagged for a closer look

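Some values went against the simplest outcome, in which both genotypes respond alike. For confinement, 8 members had a response in cPLA_2_ KO DCs that was lower than in cPLA_2_ WT DCs, on the log2 scale by −0.92 for *Fos*, −1.07 for *Fosl1*, −1.67 for *Fosl2*, −1.81 for *Junb*, −0.26 for *Jund*, −1.67 for *Batf*, −2.91 for *Batf2* and −1.22 for *Batf3*. The value for *Jund* was −0.07, and not called, with the same total per library. For LPS, the response of *Jun* differed by −0.37 between labels that the data go against, so it is not a difference between known genotypes. In LPS-treated cells the labels differed by −0.03 for *Jun*, not called, beside 0.33 between the nonconfined genotypes. The call ended without nonconfined cPLA_2_ WT replicate 3 (−0.36) or nonconfined cPLA_2_ KO replicate 3 (−0.33). The cause was not tested.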

How the results depend on the processing

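Results were recomputed with other filters, other scaling, edgeR, DESeq2, a fit of the compared conditions alone, another call rule, and after removal of each single library. The LPS groupings that leave out libraries or pool them were added after seeing the data. With the same total per library 9 changes reversed that were called with either scaling: *Jun* in confined against nonconfined cPLA_2_ WT cells (−0.0231), *Jun* (−0.33) and *Jund* (−0.28) with LPS in cPLA_2_ WT-labelled cells, *Jund* (−0.38) and *Batf3* (−0.0864) with LPS in cPLA_2_ KO-labelled cells, *Jund* (−0.33) and *Batf3* (−0.0246) with LPS over both labels, and *Jund* between confined and LPS-treated cells of cPLA_2_ WT (0.00944) and of cPLA_2_ KO (0.0395). Of estimates called with neither scaling, those of *Fosb* (0.103) and *Jun* (0.131) for the confinement interaction, of *Fosb* between confined genotypes (0.109), of *Batf2* between nonconfined genotypes (−0.0261) and of *Batf* for the LPS interaction (0.0119) also changed sign. The number of members whose LPS response differed between labelled genotypes was 1, and 2 with a filter of 100 counts, with TMM scaling, with edgeR and with DESeq2, where *Junb* joined *Jun*. Leaving out single libraries gave 0 to 2: it was 2 without nonconfined cPLA_2_ WT replicate 1 or cPLA_2_ KO replicate 2, and 0 without replicate 3 of either. Under a fold of 1.5 with an unadjusted p under 0.05, the 10 members changed by LPS in cPLA_2_ WT-labelled cells became 6, and the 2 that differed between nonconfined genotypes became 0. That rule has the thresholds of the study's methods but was put on the limma fit, without the study's expression filter. For the LPS interaction it kept a count of 1 but ended the call of *Jun* (−0.37) and called *Fosl1* (−0.61). It also lowered the counts for confinement in cPLA_2_ WT (9 to 7) and cPLA_2_ KO cells (9 to 6), the confinement interaction (8 to 7), the confined genotypes (9 to 6), LPS in cPLA_2_ KO-labelled cells (9 to 7), LPS over both labels (9 to 6), and confined against LPS-treated cells of cPLA_2_ WT (9 to 6) and cPLA_2_ KO (10 to 8). Without a filter the calls of *Jun* for confinement in cPLA_2_ KO cells (adjusted p = 0.0584) and of *Jund* for the confinement interaction (adjusted p = 0.0639) ended. Scaling to the same total ended the calls of *Batf3* with LPS in cPLA_2_ WT-labelled cells (0.04), and made calls of *Jund* for confinement in cPLA_2_ WT cells (−0.27), of *Jun* for LPS (−0.50) and of *Jun* between confined and LPS-treated cPLA_2_ WT cells (0.31). Replicate numbers were not treated as pairs, since no pair of conditions had all correlations of replicate residuals over 0.1. Those correlations ran from −0.142 to 0.338, and missing that mark does not show that replicates were unpaired. The cause of these shifts was not tested beyond the change of scaling.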
